A study of Mus musculus with 4 samples.

Results

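Integrins and laminins are the receptors and the ligands of cell attachment to the basement membrane, and their transcripts were described here in lung tumors of the KP mouse. The genes were chosen by symbol alone, as every gene whose symbol is that of an integrin α chain (Itga), an integrin β chain (Itgb) or a laminin α, β or γ chain (Lama, Lamb, Lamc), without use of any measured value. This gave 37 of the 39017 genes in the count table, namely 18 integrin α chains, 8 integrin β chains and 11 laminin chains (5 α, 3 β and 3 γ).

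A laminin is a cross-shaped protein of an α, a β and a γ chain that polymerizes into the sheet of the basement membrane, on which alveolar epithelium and capillaries both rest in the lung. An integrin is a pair of an α and a β chain that spans the plasma membrane, binds laminin, collagen, fibronectin or a protein on another cell, and is tied inside the cell to actin. Epithelial cells use mainly integrins that hold laminin and collagen, whereas leukocytes carry integrins of their own, built on the Itgb2 chain, to stop on and cross vessel walls.

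RNA was sequenced from 4 macrodissected tumors, which form 1 group labeled as control. They came from male C57BL/6 KP mice, which carry floxed Trp53 on both chromosomes, and lung adenocarcinoma was started by 1500 viral units of Lenti.PGK-Cre given through the trachea. Tumors were collected 22 weeks and 5 days later, and RNA was taken after dissociation to single cells. The genotype label adds heterozygous fl/wt with no gene named, the deposited log2 columns read WT, and by the methods a control mouse could carry 0 or 1 floxed Slc2a1 allele. The PGK promoter is active in most cell types, so Cre was not restricted to a kind of lung cell. The labels name no removal of immune cells. The methods describe RNA from bulk tumors and from fractions depleted of CD45+ cells, the latter for cohorts that include PGK-Cre. The labels do not state which preparation was used here. There was 1 library per tumor and nothing states that the tumors came from separate mice, so the spread between tumors given below may be partly technical.

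Total counts were 8151613 to 8799007 per tumor. Levels are given as CPM, the count per 1000000 of effective library size, and at this depth 3 counts, the limit a count of 0 allows, were 0.330 to 0.370 CPM. Epithelial and alveolar type 2 markers were abundant in all 4 tumors, with summed levels of 2710 to 4542 CPM for 6 epithelial genes and 32860 to 60875 CPM for 8 alveolar type 2 genes. The summed levels of the other cell type marker lists were 1097 to 1969 CPM for alveolar type 1, 53.9 to 907 CPM for airway club and ciliated cells, 526 to 832 CPM for pan-leukocyte genes, 149.6 to 260.5 CPM for macrophages, 27.5 to 66.9 CPM for neutrophils, 6.38 to 22.8 CPM for T and NK cells and 6.27 to 21.6 CPM for B cells. They were 254 to 337 CPM for endothelium, 301 to 531 CPM for fibroblasts, 237 to 573 CPM for smooth muscle and pericytes, 23.2 to 116 CPM for mesothelium, 16.7 to 199 CPM for platelets and megakaryocytes and 0.929 to 29.4 CPM for basal or squamous cells. The platelet genes Gp9 and Gp1ba and the squamous gene Dsg3 were at 0 counts in every tumor. The other genes of the basal or squamous list did not go together. Krt14 was at 21.0, 0.581, 0 and 0.833 CPM in tumors 1 to 4, and Krt6a at 7.70, 0.116, 0.740 and 0.833 CPM. Trp63 was instead at 0, 0.116, 0.370 and 1.07 CPM, and Krt5 and Krt15 had 4 and 2 counts at most. In these libraries of mixed cells, fewer cells of a type and less RNA per cell cannot be told apart.

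Of the 37 genes, 35 had a mean of at least 1 CPM, 25 reached 10 CPM and 12 reached 100 CPM. The Lamc3 γ chain, with 1 to 5 counts per tumor, and the leukocyte chain Itgad, with 1 count in tumor 1 and 0 in the others, stayed below 1 CPM. The most abundant was Itgb1, the β chain shared by most matrix-binding integrins, with a mean of 976 CPM, and the α chain with the highest level was the laminin receptor chain Itga6, with 370.5 CPM. The levels of 30 of 35 differed between tumors by more than counting noise, against 76.7% of the 14225 genes tested, and 18 of 35 had a highest level at least 2-fold above the lowest, against 28.1% of all genes.

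**Figure D1:**
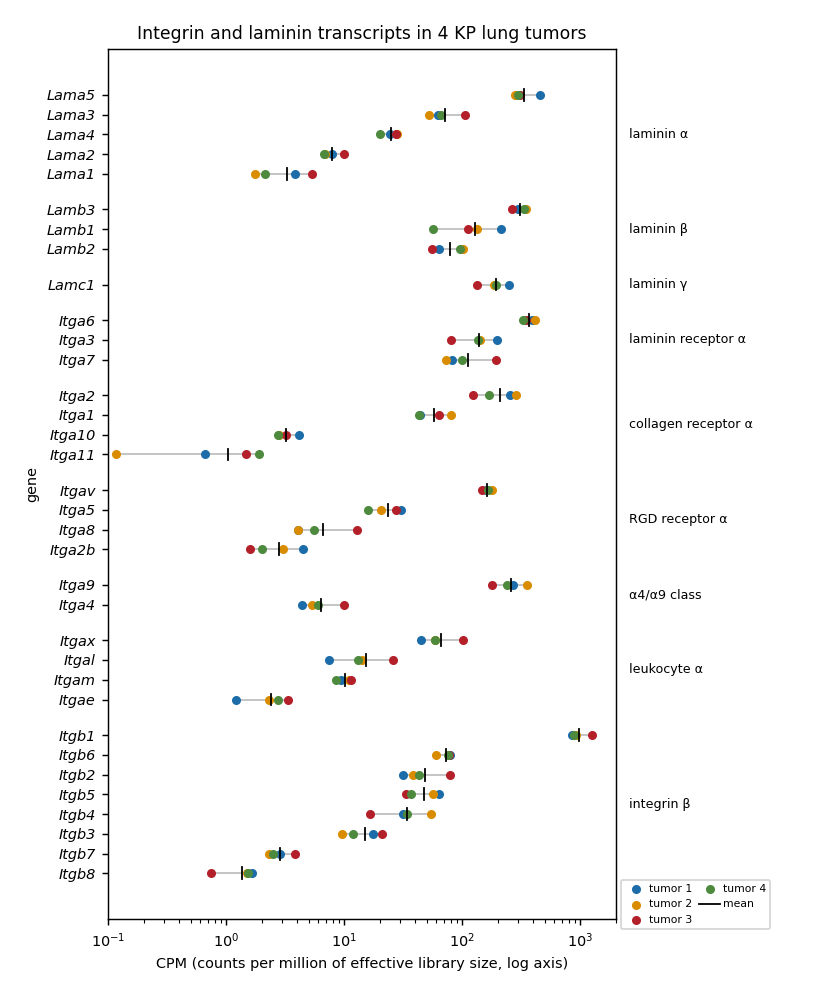
Level of 34 of the 35 integrin and laminin genes with a mean of at least 1 CPM, with 1 point per tumor, a black tick at the mean and genes grouped by role; the horizontal axis is CPM on a log scale. Itgb1 lies farthest to the right, with a mean of 976 CPM, and the red points of tumor 3 lie at an end of the range for most leukocyte integrin chains.

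Among laminin α chains, Lama5, the main α chain of mature epithelial basement membranes, was the most abundant. Lama5 was at 454, 282, 308 and 297 CPM in tumors 1 to 4 (mean 335 ± 79.6, SD, n = 4), high in tumor 1 and close together in the other tumors. Lama3, the α chain of the laminin that anchors epithelium to hemidesmosomes, was at 62.6, 52.3, 106 and 66.4 CPM, with tumor 3 above the rest. Lama4, an α chain of vessel walls, was at 24.4, 28.2, 27.3 and 20.1 CPM, a 1.40-fold range. Lama2, the muscle chain, and Lama1, the embryonic chain, had means of 7.83 and 3.26 CPM, and Lama2 did not differ between tumors beyond counting noise (chi-square test, adjusted p = 0.107). Per kilobase of exon, which allows levels of different genes to be set side by side, Lama5 made up 75.2% ± 6.16 of laminin α transcripts, Lama3 17.3% ± 5.35 and Lama4 5.44% ± 1.29 (SD, n = 4). Lama5 exceeded Lama3 by 2.16 ± 0.55 and Lama4 by 3.81 ± 0.40 on the log2 scale per kilobase, in 4 of 4 tumors each.

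The promoter of Lama5, whose gene lies on the minus strand at chr2:180176373-180225859, is shown as the upstream sequence of the leading laminin α chain. RefSeq windows of 250 bases before the transcript start (GRCm38.p6) were at hand for 23 of the 37 genes, in 26 windows, and were searched on both strands for 4 motifs: an AP-1 site (TGANTCA), a GC box (GGGCGG), a PU.1 core (GAGGAA) and a TATA box (TATAAA), where a base could count for more than 1 motif. The GC box, bound by Sp-family factors, was in 9 of 26 windows, against 33.0% of 32536 RefSeq windows of that length, and the TATA box was in 0 of 26, against 12.3%. In the sequence below, written 5′ to 3′ in the direction of transcription, capitals mark 4 GC boxes and 1 PU.1 core, the first as GAGGAA and the others as GGGCGG or its reverse complement.
Lama5 promoter, chr2:180225860-180226109, minus strand: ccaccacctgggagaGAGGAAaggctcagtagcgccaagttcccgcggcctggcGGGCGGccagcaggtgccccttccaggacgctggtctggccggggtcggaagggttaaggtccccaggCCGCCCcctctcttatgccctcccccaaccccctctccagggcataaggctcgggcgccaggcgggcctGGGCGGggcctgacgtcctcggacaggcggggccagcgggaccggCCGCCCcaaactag

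Of the β chains, Lamb3, the partner of Lama3 in the epithelial anchoring laminin, led. Lamb3 was at 296, 351, 262 and 336 CPM (mean 311 ± 39.9), a range of 1.34-fold. Lamb1, the β chain of most other epithelial and embryonic laminins, was at 213, 133, 111 and 56.6 CPM, with tumor 1 3.75-fold above tumor 4. Over the 4 tumors together it differed beyond counting noise (chi-square test, adjusted p = 3.79e-181), which does not test a single pair of tumors. Lamb2, its counterpart in mature vessel, synaptic and kidney basement membranes, was at 63.5, 101, 55.2 and 95.3 CPM. Their order was not fixed: per kilobase, Lamb1 was higher in tumors 1 and 3 and Lamb2 in tumors 2 and 4, with a mean difference of -0.10 ± 1.06 on the log2 scale (exact two-sided sign-flip test over 4 tumors, p = 0.875). The mean levels of 13.0 and 12.9 CPM per kilobase put Lamb1 marginally above, and the sign of the difference depended on the length used for Lamb1. Lamb3 made up 64.7% ± 4.97, Lamb1 17.7% ± 8.25 and Lamb2 17.6% ± 3.86 of laminin β transcripts per kilobase.

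Lamc1, the γ chain of most laminins, was at 252, 187, 134 and 195 CPM (mean 192 ± 48.4). It was highest in tumor 1 and lowest in tumor 3, a 1.89-fold range. The gene lies on the minus strand at chr1:153218922-153332786.

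Lama3 and Lamb3, which assemble into the epithelial anchoring laminin, were not present in equal amounts. On the log2 scale per kilobase, Lama3 minus Lamb3 was -2.94, -3.45, -2.01 and -3.04 in tumors 1 to 4 (mean -2.86 ± 0.61), below 0 in 4 of 4 tumors. Lama3 was highest in tumor 3, where Lamb3 was lowest, and the difference was nearest to 0 there.

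**Figure D2:**
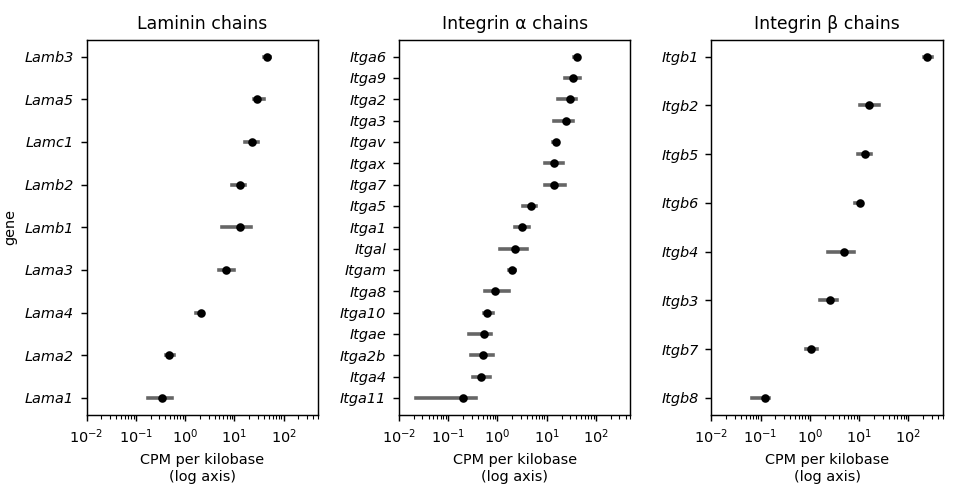
Mean level (point) and range over 4 tumors (bar) of 34 laminin, integrin α and integrin β chains with at least 1 CPM, in CPM per kilobase of exon on a log axis, from highest to lowest. Itgb1 at 239 CPM per kilobase stands clear of every other integrin, while most α chains overlap the range of the next chain in the order.

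The laminin-binding integrin α chains were led by Itga6, which pairs with Itgb1 or with Itgb4. Itga6 was at 390, 412, 350 and 331 CPM (mean 370.5 ± 36.7), 1 of the steadiest members with a 1.24-fold range. Itga3, a receptor of epithelial laminins, was at 197, 142, 81.1 and 135 CPM and had its highest level in tumor 1 and its lowest in tumor 3, as did Lamc1. The SD of the log2 ratio of Itga3 to Lamc1 was 0.16, place 8 among 300 pairs of members with at least 10 CPM, whose median was 0.55. Pairs that are not receptor and ligand were also this tight, such as Itga6 with Itgav at 0.14. Itga7, known as the laminin receptor of muscle, was at 82.6, 73.2, 193 and 99.7 CPM, with tumor 3 far above the others, a 2.64-fold range. Smooth muscle and pericyte markers summed to 445, 237, 573 and 248 CPM in the same tumors, and their part in the Itga7 level was not tested. An exon of Itga7 overlaps the antisense gene Mettl7b, which had 78 counts at most against 630 or more for Itga7, and the counting strand was not given. On the log2 scale per kilobase, Itga3 minus Itga6 was -0.82 ± 0.48, below 0 in 4 of 4 tumors.

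Collagen-binding α chains were dominated by Itga2, the collagen receptor of epithelium and platelets, at 255, 286, 123 and 170 CPM (mean 209 ± 75.0). Tumors 1 and 2 were high and tumor 3 low, a 2.32-fold range. Itga1, the collagen receptor of stromal, endothelial and some immune cells, was at 44.3, 81.2, 63.8 and 43.1 CPM. These genes are neighbors, 21.0 kb apart on chromosome 13, and Itga2 made up 87.2% ± 5.02 of collagen receptor α transcripts per kilobase against 10.1% ± 4.16 for Itga1. Itga10, a cartilage chain, had a mean of 3.23 CPM and did not differ beyond counting noise (chi-square test, adjusted p = 0.329). Itga11, a fibroblast chain, had the widest range of any member, but at 6, 1, 12 and 16 counts (0.660, 0.116, 1.48 and 1.90 CPM). The ratio of tumor 4 to tumor 2 was 16.4, with an exact 95% counting interval of 2.55 to 687. These tumors were taken as the highest and the lowest of the widest-ranging member. The interval does not allow for that choice, so it does not test whether the tumors differ.

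The chains that recognize the RGD motif of fibronectin and related ligands were led by Itgav, at 159, 179, 146 and 167 CPM, the smallest range of all 35 members at 1.22-fold. Itga5, the fibronectin receptor chain, was at 30.3, 20.4, 27.3 and 16.1 CPM. Itga8, a mesenchymal chain that binds nephronectin, and Itga2b, the platelet fibrinogen receptor chain, had means of 6.64 and 2.79 CPM. Itga2b had 13 to 41 counts, with its highest level in tumor 1. Of the 6 platelet markers, Gp9 and Gp1ba had 0 counts in every tumor, Gp1bb and Gp6 had 1 and 4 counts at most, Ppbp had 4 to 10 counts, and Pf4, which some macrophages also express, was at 15.8, 199, 30.5 and 21.8 CPM, highest in tumor 2; their part in the Itga2b level was not tested. The most abundant gene of the remaining class was Itga9, which binds tenascin C, osteopontin and VCAM, at 268, 358, 179 and 239 CPM (mean 261 ± 74.5). Its highest and lowest tumors were again 2 and 3. Itga4, the leukocyte chain of that class, had a mean of 6.39 CPM, and Itga9 made up 98.5% ± 0.993 of the class per kilobase.

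Of the leukocyte α chains, 4 of 4 with at least 1 CPM were highest in tumor 3, as were 30.1% of all genes tested and members of other roles such as Itgb1, Itga7 and Lama3. For Itgam and Itgae the lead was narrow. Itgam was at 11.4 CPM in tumor 3 against 10.9 in tumor 2, and Itgae had 27 counts in tumor 3 against 23 in tumor 4. Itgax, carried in lung mainly by alveolar macrophages and dendritic cells, was at 45.1, 58.9, 101 and 59.3 CPM. Itgal, the lymphocyte chain that binds ICAM, was at 7.48, 14.1, 26.2 and 13.2 CPM, a 3.50-fold range. Their common partner Itgb2 was at 31.6, 38.4, 79.0 and 43.2 CPM, also lowest in tumor 1 and highest in tumor 3. The pan-leukocyte gene Ptprc, which encodes CD45, was at 26.2, 35.8, 83.4 and 38.5 CPM, and 5 of the 6 pan-leukocyte markers were highest in tumor 3. Macrophage markers summed to 149.6, 167, 260.5 and 171 CPM and T and NK cell markers to 6.38, 7.32, 22.8 and 6.78 CPM. The pan-leukocyte sum, most of which was Lcp1, was instead 526, 832, 812 and 724 CPM. Of 6 macrophage markers, 5 were highest in tumor 3, Mrc1 with 108 CPM, but C1qa was lowest there. Of 4 T and NK cell markers tested, 3 were highest in tumor 3, Cd2 with 12.6 CPM, but Lck was lowest there. The part of leukocyte content in these integrin levels was not tested.

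Set against Ptprc in the same library, 5 of 7 integrin chains of leukocytes spread less between tumors than their CPM did. Ptprc was itself highest in tumor 3, and these ratios were not taken for other genes, so no share over all genes is given. Less spread in a ratio was not particular to leukocyte chains. The log2 ratio of the muscle laminin receptor Itga7 to Itgb2 had an SD of 0.20, against 0.62 for log2 CPM of Itga7. Counts of Itgb2 per count of Ptprc were 1.21, 1.07, 0.947 and 1.12, and the SD of their log2 was 0.15, against 0.57 for log2 CPM of Itgb2. For Itgal that SD was 0.19 against 0.74, for Itgax 0.22 against 0.49 and for Itga4 0.22 against 0.49. Itgam, the chain of neutrophils, monocytes and recruited macrophages, went the other way. It was at 9.46, 10.9, 11.4 and 8.56 CPM, did not differ beyond counting noise (chi-square test, adjusted p = 0.274), and its log2 ratio to Ptprc had an SD of 0.62 against 0.19 for its log2 CPM. Itgb7 and Itgae, which pair on intraepithelial lymphocytes, had means of 2.88 and 2.40 CPM, and the SD relative to Ptprc was 0.52 against 0.31 for Itgb7 and 0.39 against 0.62 for Itgae. The ratio of Itgax to Itgb2 had an SD of 0.11 on the log2 scale, where counting alone gives 0.10. Among 300 pairs of members with at least 10 CPM the median SD was 0.55, and 3 pairs were tighter, among them Itgav with Lamb3 and Itgam with Lama4, at 0.07 each, which are not chains of 1 receptor. Itgax shares a near-identical stretch of sequence with Itgad, which had 1 count in all.

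Itgam and Itgax are adjacent on the plus strand of chromosome 7, 11.1 kb apart, and differed in their spread between tumors, so their upstream windows are given together. Capitals mark 1 GC box and 2 PU.1 cores in the Itgam window, on either strand, and the AP-1 site in the Itgax window. PU.1 is a transcription factor of myeloid cells, and its core was in 13 of the 26 windows, against 23.4% of all RefSeq windows. The core did not follow leukocyte chains. Of those with a window, Itgam had it and Itgax, Itga4 and Itgb7 did not, while Itga3, Itgb1, Lama5 and Lamb1 had it. No window was at hand for Itgal, Itgae, Itgad and Itgb2. The AP-1 site was in 1 of 26, against 6.73%. No match says only that these letters are absent from the window.
Itgam promoter, chr7:128062390-128062639, plus strand: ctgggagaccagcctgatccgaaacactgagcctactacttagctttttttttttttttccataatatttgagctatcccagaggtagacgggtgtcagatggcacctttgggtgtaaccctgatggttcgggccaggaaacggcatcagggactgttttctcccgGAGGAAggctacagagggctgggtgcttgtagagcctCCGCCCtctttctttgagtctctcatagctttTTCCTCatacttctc
Itgax promoter, chr7:128129300-128129549, plus strand: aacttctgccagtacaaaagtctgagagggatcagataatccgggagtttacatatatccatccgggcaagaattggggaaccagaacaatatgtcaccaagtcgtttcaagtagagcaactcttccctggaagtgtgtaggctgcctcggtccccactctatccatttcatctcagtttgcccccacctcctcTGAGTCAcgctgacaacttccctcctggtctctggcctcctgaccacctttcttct

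Itgb1 was by far the leading β chain, at 846, 914, 1248 and 894 CPM (mean 976 ± 184), and had its highest level in tumor 3. The gene lies at chr8:128685654-128733200. It made up 83.1% ± 1.62 of integrin β transcripts per kilobase and exceeded each other β chain in 4 of 4 tumors, from Itgb2, by 4.00 ± 0.33, to Itgb8, by 10.91 ± 0.76 on the log2 scale. The epithelial chain Itgb6, which joins Itgav to activate TGF-β, was at 78.1, 59.8, 77.6 and 76.2 CPM. Itgb5, the vitronectin-binding partner of Itgav, was at 63.4, 56.6, 33.2 and 36.8 CPM, with tumors 1 and 2 above tumors 3 and 4. Itgb3, which joins Itgav on vessels and osteoclasts and Itga2b on platelets, was at 17.5, 9.53, 21.0 and 11.9 CPM.

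Itgb4, the hemidesmosome chain that pairs with Itga6 alone, was at 31.5, 54.0, 16.7 and 34.3 CPM, a 3.24-fold range with tumor 2 high and tumor 3 low. Its partner Itga6 was also highest in tumor 2, but lowest in tumor 4 and over a narrower range. Itga6 exceeded Itgb4 by 3.26, 2.56, 4.02 and 2.91 on the log2 scale per kilobase in tumors 1 to 4 (mean 3.19 ± 0.62). An exon of Itgb4 overlaps an antisense gene that had 3 counts at most. Itgb7 and Itgb8, the latter another activator of TGF-β, had means of 2.88 and 1.36 CPM and did not differ beyond counting noise (chi-square test, adjusted p = 0.305 and 0.398).

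**Figure D3:**
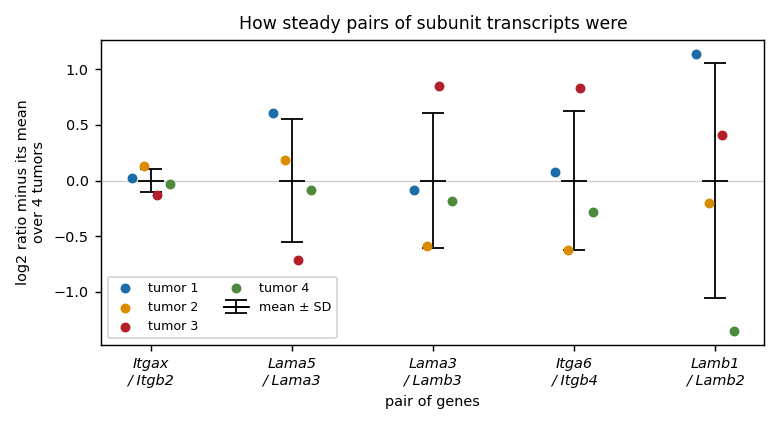
Log2 ratio of 5 pairs of subunit transcripts in each tumor, minus the pair's mean over 4 tumors, with the SD as an error bar around the mean. The points of Itgax over Itgb2 are nearly level, with an SD of 0.11, while Lamb1 over Lamb2 spreads with an SD of 1.06.

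For the order of levels, 16 pairs of chains were compared within tumors, and 15 had the same direction in 4 of 4 tumors. Each of these reached p = 0.125 in an exact two-sided sign-flip test, the smallest p that 4 tumors allow (adjusted p = 0.133 over the pairs), so none could pass 0.05. Lamb3, Lama5 and Lamc1 stood at 47.1, 29.4 and 23.2 CPM per kilobase. Their ranges overlapped with that of the next in this order, and Lamb1 and Lamb2 could not be ordered. Among α chains, Itga6 at 41.1, Itga9 at 33.9, Itga2 at 29.2 and Itga3 at 24.3 CPM per kilobase led with overlapping ranges. Itgav, Itgax and Itga7 followed at 15.1, 13.8 and 13.9 without an order in all tumors. These places depend on the length used. Itga7 has 8092 nt of merged exon but a longest transcript of 4020 nt, and Itga6 has 9025 nt against 4310 nt. Their places and the overlaps of ranges were not recomputed with the shorter lengths. After Itgb1, the β chains Itgb2, Itgb5 and Itgb6, at 15.7, 13.4 and 10.3 CPM per kilobase, had overlapping ranges and lay above Itgb4 at 4.86 and Itgb3 at 2.54, with no overlap between Itgb6 and Itgb4.

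Tumor 3 was the highest or the lowest tumor for 26 of 35 members, against 62.7% of all genes tested. Of the 35 genes, 14 were highest in tumor 3 (30.1% of all genes tested), 11 in tumor 1 (31.4%), 9 in tumor 2 (20.4%) and 1 in tumor 4 (18.0%). The 14 included 4 leukocyte α chains, 4 β chains and 3 laminin α chains. The lowest level was in tumor 3 for 12 genes (32.6% of all genes tested, near the members' own share), in tumor 1 for 6 (30.3%), in tumor 2 for 9 (19.4%) and in tumor 4 for 8 (17.7%). The 12 lowest in tumor 3 included Lamb2, Lamb3, Lamc1, Itga2, Itga3, Itga9, Itgav, Itgb4 and Itgb5. The difference was at least 2-fold for 12 of 35 members between tumors 1 and 3 (18.8% of all genes tested) and for 10 between tumors 2 and 3 (12.3%). It was at least 2-fold for 2 members between tumors 1 and 2 (9.93%), 4 between tumors 1 and 4 (10.4%), 2 between tumors 2 and 4 (6.60%) and 4 between tumors 3 and 4 (10%). Over all genes, too, tumors 1 and 3 differed most. Without tumor 3, 4 of 34 members tested had a 2-fold range, against 16.1% of all genes.

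**Figure D4:**
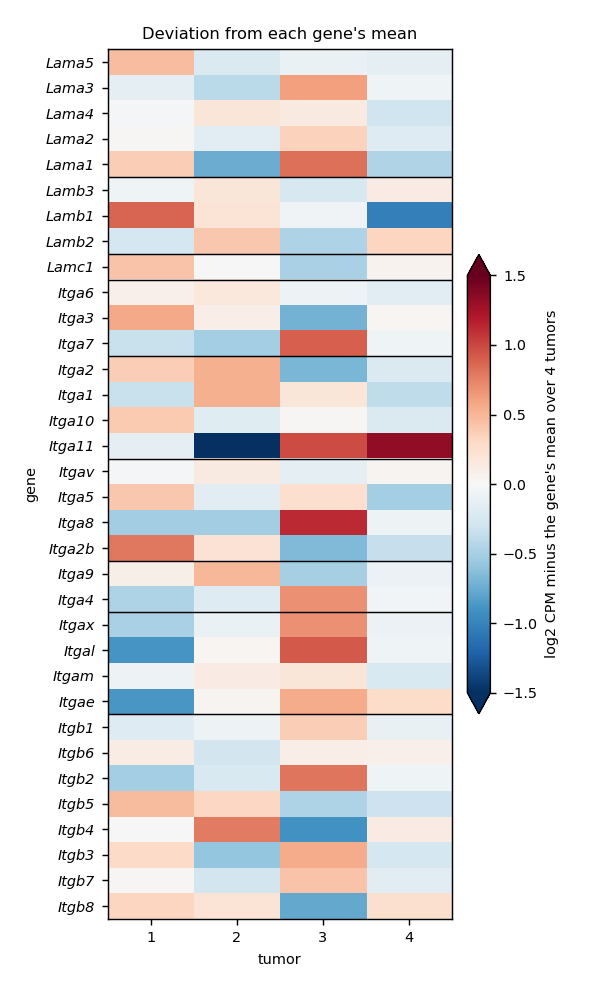
Log2 CPM of 34 of the 35 genes in each tumor minus the gene's mean over the 4 tumors, from blue (below the mean) to red (above), with lines between roles; colors end at 1.5. The column of tumor 3 holds red cells for leukocyte chains, Itga7, Itga8 and Lama3 and blue cells for Lamc1, Itga2, Itga3 and Itgb4.

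The median ratio of the highest to the lowest tumor was 2.00 for the 35 members, 2.20 for the 25 integrins and 1.86 for the 10 laminins among them, against 1.58 for all genes tested. Integrins held 15 of the 18 members with a 2-fold range. The laminins with such a range were Lama1, Lama3 and Lamb1. By Dixon's ratio, which marks a gene whose outermost tumor lies far from the next, 2 of 35 members had 1 tumor apart, against 5.86% of all genes. The biological coefficient of variation over all genes was 30.8%.

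**Figure D5:**
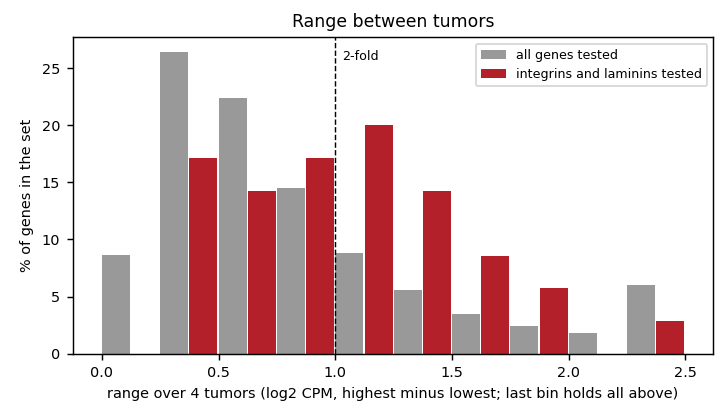
Share of genes by the range of log2 CPM over 4 tumors, in bins of 0.25, for all 14225 genes tested (gray) and for the 35 integrins and laminins (red), with a dashed line at 2-fold. Right of the line lie 18 of the 35 members and 28.1% of all genes.

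Genes that link integrins to actin or signal from them had smaller median ranges than the 2.00-fold of the members. Of 14 genes of integrin activation and actin linkage, 12 differed beyond counting noise but 2 had a 2-fold range (median 1.39-fold). The most abundant were Flna, an actin cross-linker that binds β tails, with a mean of 1061 CPM, and Actn4, an α-actinin, with 497 CPM. The exception was Fermt1, the epithelial kindlin that activates β chains, at 71.2, 107, 2.71 and 82.3 CPM, so that tumor 3 was 39.4-fold below tumor 2. Fermt3, the kindlin of blood cells, was highest in tumor 3 and had a 2.11-fold range. Of 14 focal adhesion kinases and adaptors, 11 differed and 4 had a 2-fold range (median 1.42-fold). Lims1, an adaptor of the integrin-linked kinase, was at 161, 477, 354 and 297 CPM, and Parva, a partner in that complex, had a mean of 213 CPM. The leukocyte parvin Parvg and Lims2 ranged 4.53-fold and 4.08-fold, both highest in tumor 3.

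Basement membrane genes that bind or accompany laminin had a larger median range than the linkage genes. Of 13, 12 differed beyond counting noise and 6 had a 2-fold range (median 1.91-fold). Col4a1, a chain of the collagen IV network, was at 1060.4, 808, 496 and 695 CPM, and Col4a2 had a mean of 369 CPM. Col4a1 was highest in tumor 1 and lowest in tumor 3, as were Lamc1, Actn4, Sdc1 and Spp1. How many of all genes had this pattern was not computed. Col4a6 was at 34.6, 6.97, 2.84 and 10.1 CPM, and Fras1, a basement membrane protein of epithelium and mesenchyme, at 72.5, 71.1, 9.63 and 60.4 CPM, lowest in tumor 3 in each case. Of 10 hemidesmosome genes and other laminin receptors, 9 were tested, 9 differed and 3 had a 2-fold range (median 1.62-fold). Col17a1, the hemidesmosome collagen, had 1 count in tumor 1 and 0 in the others. The laminin-binding proteoglycan Sdc1 and the tetraspanin Cd9 were the most abundant, with means of 1004 and 706 CPM, while Dst was highest (121 CPM) and Dag1, the dystroglycan gene, lowest (122 CPM) in tumor 3.

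Ligands of integrins other than laminin had the largest median range of the 5 lists. Of 15, 14 were tested, 14 differed and 8 had a 2-fold range (median 2.05-fold). Spp1, encoding osteopontin, a ligand of Itgav and Itga9 receptors, was at 1499.8, 629, 283 and 744 CPM. Vcam1, a ligand of Itga4 and Itga9 receptors, was at 260, 349, 65.0 and 245 CPM. Vcam1 and Itga9 were both highest in tumor 2 and lowest in tumor 3, as were Itga2, Itgav, Itgb4, Lamb2 and Lamb3. The share of all genes with that pattern was not computed. The Itga9 ligands Spp1 and Tnc were instead highest in tumor 1, and Tnc was at 58.0, 19.6, 24.4 and 24.6 CPM. Fn1, the fibronectin gene, had a mean of 846 CPM. Cdh1, the E-cadherin bound by Itgae, was level at 842, 887, 846 and 876 CPM. Over the 5 lists, 58 of 64 genes tested differed beyond counting noise and 23 had a 2-fold range, against the 76.7% and 28.1% of all genes.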

How the data were processed

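Raw counts per Ensembl gene were deposited by the authors as 1 table per tumor and 1 combined table; 156068 of 156068 values were equal. Per the methods and submitters' notes, single-end reads of a stranded polyadenylated RNA library (500 ng total RNA) were trimmed with Cutadapt, aligned to mm10 with HISAT2 and counted with featureCounts 1.4.4; the strand setting and annotation release were not given in the sources used here. The log2 normalised counts deposited by the authors (TMM, then voom) served as an alternative.

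Totals were multiplied by TMM factors (edgeR 4.0.16, R 4.3.3) to give effective sizes. Log2 CPM used 0.5 added to the count and 1 to the size, and genes with a mean of at least 1 CPM were tested (14225). For spread, a gene's 4 counts were set against Poisson expectations in proportion to effective size (chi-square, 3 degrees of freedom, Benjamini-Hochberg over all genes, threshold 0.05). It was tested on simulated data. A tumor was set apart where Dixon's ratio passed 0.829. Levels of different genes were compared per kilobase of merged exon (GENCODE M21, GRCm38; 37 of 37 members found), by exact sign-flip tests for 16 pairs. Near-identical copies were stretches of at least 80 nt at 97% identity (BLAST 2.17.0). Other tools were numpy 2.4.6, pandas 2.3.3, scipy 1.17.1 and, as an alternative, DESeq2 1.42.0 size factors. Reads carried no molecular identifiers, so floors and intervals cover counting error only.

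Values per tumor are given for members with a mean of at least 10 CPM, or a 4-fold range at 1 CPM or more. From each of 5 pathway lists the 2 most abundant and the 2 widest-ranging genes at 1 CPM or more are named. Col17a1, Tnc, Krt14, Krt6a, Krt5, Krt15, Trp63, Mrc1, C1qa, Cd2 and Lck were added after their values were seen. The 5 pathway and 15 marker lists hold 161 entries, 161 of which were matched, 2 by older symbols (Emr1 for Adgre1). The symbol rule itself used no measured value, but the members and lists were chosen with earlier results of these data known. 1 member and 1 allele of the mice are not reported here; the member is included in the counts. There was 1 group, so no groups were compared.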

Additional observations from a re-analysis of the deposited data

Results flagged for a closer look

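Among 54 results examined for a tumor lying far from the other 3, 3 were marked, where chance gives about 1 in 20, or 2.7. Itgb6 was at 59.8 CPM in tumor 2 and at 76.2 to 78.1 CPM in the others. Itgb8 was at 0.740 CPM in tumor 3, which is 6 counts, and at 1.51 to 1.65 CPM in the others, a spread not beyond counting noise. The log2 difference of Itgb1 over Itgb8 per kilobase in tumor 3, 12.04, uses that same Itgb8 value, and the other tumors were at 10.39 to 10.63.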

How the results depend on the processing

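There were 14 alternatives, and each result was rerun only under those that bear on it. The comparisons between chains were rerun with the length of the longest transcript, without a length and without each tumor. For the 15 pairs with the same direction in every tumor, leaving out a tumor could not turn the mean. Over these settings, 93 of 96 values kept their direction. The exception was Lamb1 minus Lamb2, which turned to 0.56 with the length of the longest transcript, 0.60 without a length and 0.35 without tumor 4, with a range of -0.48 to 0.35 when a tumor was left out. The number of members with a 2-fold range was 11 of 25 at a mean of at least 10 CPM (17.1% of all genes) and ranged from 4 to 16 when 1 tumor was left out, with 4 reached without tumor 3. With 1 tumor apart there was 1 member by total count and 1 at 10 CPM. The share of Itgb1 was 81.2% without a length. Leaving out a tumor gave 26 to 28 members beyond counting noise. Of 303 values of single members' spread, 16 no longer passed: Itgae in 5 alternatives, Itgb6 (without tumor 2) and Lama4 (without tumor 4) in 2 each, and Itga2b without tumor 1, Itga11 without tumor 2, Itga4 and Itga8 without tumor 3 and Itga6, Itgav and Lamb3 with a technical variation of 10% in 1 each. The cause was not tested. No paired analysis was possible because there was 1 group, so no replicate block across groups could be fitted, and the comparisons of chains were made within tumors. Depth limits Itga11, Itgb8, Itgad and Lamc3, which had 16 counts or fewer in every tumor.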
